A study of Mus musculus with 5 samples.

Results

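The receptors for oxytocin and vasopressin were followed through single-nucleus RNA-seq of the mouse central amygdala (CeA). They were taken by gene symbol as Oxtr and Avpr1a, 2 genes of 22532 in the count matrices. Their raw molecule counts (unique molecular identifiers, UMIs) were read in nuclei with 500 to 8000 genes and under 0.8% of UMIs from mitochondrial genes. The study sequenced 5 libraries, 3 from fed and 2 from fasted mice, and each library held the pooled CeA tissue of 2 mice, 1 male and 1 female. Fed replicates 1 and 2 and both fasted replicates came from C57BL/6NRj mice of 8 weeks, and the fasted mice were without food for 20 h (replicate 1) and 21 h (replicate 2). Fed replicate 3 came from Htr2a-Cre mice of 12 weeks that carried a virally delivered, Cre-dependent mCherry, so this genotype and age occurred in 1 fed library and in no fasted one.

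Oxytocin and vasopressin are related peptides made mainly in the hypothalamus, whose fibres reach the amygdala. Oxtr and Avpr1a are G protein-coupled receptors that act through Gq, phospholipase C beta and calcium release, and Avpr1b and Avpr2 are the other vasopressin receptors. In rodents, oxytocin-sensitive neurons are known mainly from the lateral and capsular CeA and vasopressin-sensitive ones from the medial CeA, and both peptides are studied for their effects on fear and social behaviour. In GENCODE vM39 on GRCm39, Oxtr (ENSMUSG00000049112) spans chromosome 6 from 112450644 to 112468040 on the minus strand, and Avpr1a (ENSMUSG00000020123) spans chromosome 10 from 122284404 to 122289659 on the plus strand. The canonical transcript of each has 2 exons. Counting covered introns as well as exons.

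The filter kept 7161 nuclei of 23839 barcodes, 1130 to 1734 per library. Of these, 5053 were inhibitory (at least 2 UMIs of Gad1 and Gad2, the enzymes that make GABA, and under 2 of the vesicular glutamate transporters), 760 to 1368 per library. Median depth ran from 6608 UMIs per nucleus in fasted replicate 1 to 16367 in fasted replicate 2. Inhibitory nuclei were assigned to the first marker gate that they passed of Foxp2, Rarb, Vdr, Dnah5, Tac1, Dlk1, Sst, Calcrl, Prkcd and Il1rapl2, with minima of 2 to 10 UMIs. Many nuclei passed more than 1 gate: 313 of 455 in the Dnah5 gate and 175 of 340 in the Foxp2 gate. In the Rarb gate this was 347 of 1055 nuclei, in the Calcrl gate 136 of 259 and in the Prkcd gate 9 of 342. The makeup of a gate therefore depends on the order of the markers. The Vdr gate (58 nuclei) and the Tac1 gate (54 nuclei) had fewer than 10 nuclei in at least 1 library and were described without a test. The labels name no separate replicate mice within a library, so p-values measure the spread between pooled libraries.

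Oxtr was sparse but present in every library. Inhibitory nuclei held 246 Oxtr UMIs, in 215 nuclei of 5053 (4.25%, exact binomial 95% interval 3.72 to 4.85%). Most of these nuclei, 187, held 1 UMI, 28 held more, and none held over 3. The level, in UMIs per 1000000 UMIs of the same nuclei (CPM), was 3.97, 2.69 and 3.33 in fed replicates 1 to 3 and 2.90 and 3.29 in fasted replicates 1 and 2, a mean of 3.24 ± 0.489 (SD, n = 5). The 5 libraries lay close together, and the fed and fasted values overlapped. After thinning each nucleus to 4000 UMIs, 54 of 4909 inhibitory nuclei (1.10%) still held an Oxtr UMI. Intervals on counts and shares cover counting error only.

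Glia held few Oxtr UMIs. Some astrocytes of the CeA are known to carry oxytocin receptors, so glia are not a class without the receptor throughout. Of 704 astrocytes, oligodendrocytes, oligodendrocyte precursors and microglia, 2 nuclei held 1 UMI each (0.284%, interval 0.0344 to 1.02%), at 0.643 CPM over the libraries summed. Both were astrocytes, and the 143 oligodendrocytes, 69 precursors and 69 microglia held 0. The summed level in inhibitory nuclei was 4.99 times that in glia, with an exact counting interval of 1.37 to 41.4. Inhibitory nuclei were higher in 5 of 5 libraries (exact sign-flip permutation test, two-sided, p = 0.0625, the smallest p that 5 libraries allow, adjusted p = 0.188 over 3 comparisons). Glia held 0 Oxtr UMIs in fed replicates 1 and 2 and fasted replicate 1, where 3 counts would be 10.3, 3.81 and 7.03 CPM. These limits lie above the inhibitory levels of 3.97, 2.69 and 2.90 CPM, so glia were too shallow there to show such a level. After thinning, 2 of 342 glial nuclei (0.585%) held a UMI, and these 2 UMIs are too few for a comparison at equal depth.

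The 16678 barcodes outside the filter, 16637 of which had a mitochondrial share of 0.8% or more, carried Oxtr as well. Their summed level was 2.90 CPM, from 160 UMIs (exact Poisson interval 2.47 to 3.38 CPM). The inhibitory level was 1.11 times as high, with a counting interval of 0.903 to 1.36, and it was higher in 4 of 5 libraries (exact sign-flip permutation test, p = 0.125, adjusted p = 0.188). With 5 libraries this permutation test cannot give a p below 0.0625, so it could not have shown a difference. The counting interval includes equal levels in inhibitory nuclei and excluded barcodes and reaches up to a ratio of 1.36. Free RNA can add single UMIs to any nucleus, and its part in the Oxtr counts was not tested.

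Avpr1a was almost undetected. It had 5 UMIs in 4 of 7161 nuclei. Of these, 2 UMIs lay in 1 nucleus of the Vdr gate and 1 in a nucleus of the Foxp2 gate, both in fed replicate 2, and 1 each in an ungated and an unclassified nucleus of fasted replicate 2. In inhibitory nuclei this was 4 UMIs, 0.0521 CPM summed (Poisson interval 0.0142 to 0.133), with UMIs in 2 of 5 libraries. The barcodes outside the filter held 6 Avpr1a UMIs, 0.109 CPM. The filter on low counts removed Avpr1a from every comparison, and with 3 positive inhibitory nuclei no comparison of nuclei with and without it could be run. No inhibitory nucleus held UMIs of both receptors. A difference of Avpr1a between classes or feeding states was not detectable at this depth.

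The remaining vasopressin receptors were as scarce in inhibitory nuclei, and the ligands had more UMIs. Avpr1b, the pituitary-type vasopressin receptor, had 4 UMIs and Avpr2, the kidney-type receptor, had 0 of 76719689 UMIs, which allows up to 0.0391 CPM. Oxt had 28 UMIs spread over 27 inhibitory nuclei, at most 2 in each. Avp was held by few nuclei, with 52 UMIs in 21 nuclei and up to 16 in 1 ungated nucleus of fasted replicate 2. No ligand passed the filter on low counts between the gates. Avp passed it between fasted and fed libraries and was not called (log2 fold 1.23; edgeR, adjusted p = 1.00).

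**Figure D1:**
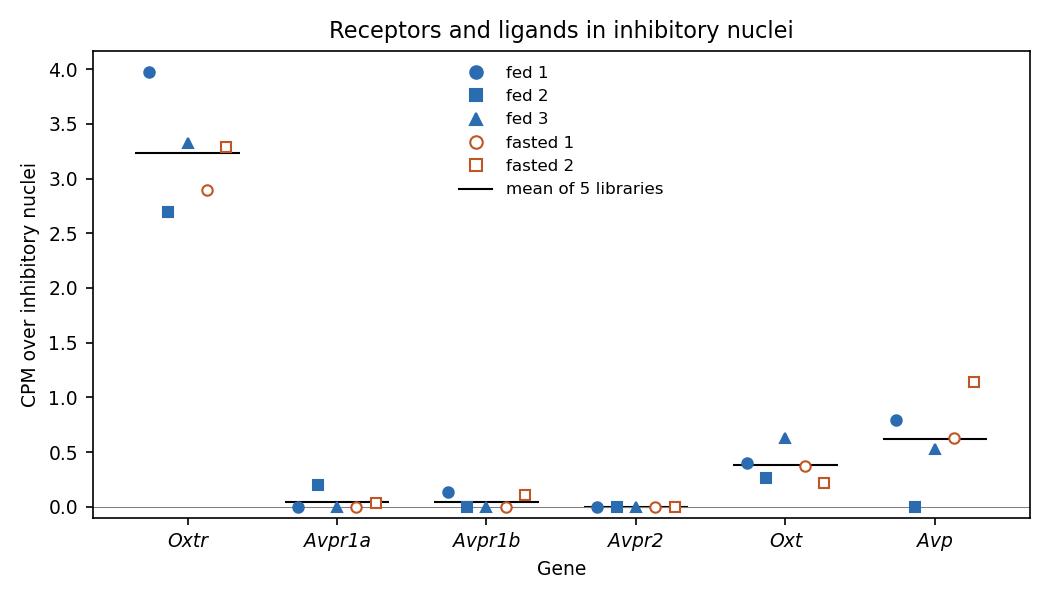
Levels of 4 receptors and 2 ligands in inhibitory nuclei, in CPM (vertical axis), for each of the 5 libraries (symbols: filled, fed; open, fasted; line, mean). Oxtr lies between 2.69 and 3.97 CPM in every library, while Avpr1a and Avpr1b have UMIs in 2 libraries each and Avpr2 is at 0. CPM counts molecules and is not scaled to gene length, so the panel compares libraries within a gene.

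Between the marker gates, the question was whether Oxtr differed from gate to gate, where a gate can mix kinds of inhibitory neuron. The highest summed level was in the Calcrl gate (Calcrl, the receptor that binds CGRP with a partner protein), with 20 UMIs in 259 nuclei at 4.94 CPM (Poisson interval 3.02 to 7.63). The Il1rapl2 gate followed at 4.55 CPM (2.97 to 6.67), the Dnah5 gate at 4.00 (2.72 to 5.68), the Prkcd gate at 3.67 (2.18 to 5.80) and the Rarb gate at 3.06 (2.28 to 4.01). The Sst gate was at 2.55 CPM (1.22 to 4.69), the Dlk1 gate at 2.14 (0.979 to 4.07) and the Foxp2 gate at 1.05 (0.386 to 2.29). The intervals of neighbours in this order overlapped throughout. The Foxp2 gate, named for the study's marker of intercalated cells, also held Rarb, an amygdalostriatal marker, at 448 CPM (939 in the Rarb gate). The order depended on how libraries were weighted: by the mean over libraries the Calcrl gate was again highest (5.00 ± 1.44 CPM, SD, n = 5), but the Dlk1 gate was lowest (1.55 ± 1.61) and the Foxp2 gate was at 3.53 ± 4.77, above the Rarb gate at 3.21 ± 1.70. The Vdr gate held 0 Oxtr UMIs in 58 nuclei, which allows up to 3.07 CPM and a share of nuclei with a UMI of up to 5.17% (limits set at 3 counts), and the Tac1 gate held 1.

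The Calcrl gate held Oxtr in every library, as did the Rarb, Dnah5 and Prkcd gates, whereas the Foxp2 gate varied widely. Both the Calcrl and the Foxp2 gate rested on few UMIs. The Calcrl gate held 2, 3 and 4 Oxtr UMIs in fed replicates 1 to 3 and 3 and 8 in fasted replicates 1 and 2. The 3 UMIs of fed replicate 2 lay in 1 nucleus. Oxtr in the Calcrl gate was at 3.57, 4.85 and 3.78 CPM in fed replicates 1 to 3 and at 7.05 and 5.77 in fasted replicates 1 and 2. In the Foxp2 gate it was at 4.13, 0.681 and 0 CPM in the fed replicates and at 11.6 and 1.24 in the fasted ones, where the 4.13 CPM of fed replicate 1 (22 nuclei) and the 11.6 CPM of fasted replicate 1 (10 nuclei) were a single UMI each. The Il1rapl2 gate ranged from 0 in fasted replicate 1 to 8.08 CPM in fed replicate 1. In that gate 25.7% of nuclei had a UMI of Nkx2-1 or Lhx6, markers of basolateral interneurons, and in the Sst gate 12.6% had one. Without those nuclei the adjusted p of Oxtr over the gates was 0.101 (edgeR), in place of 0.145 with them.

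**Figure D2:**
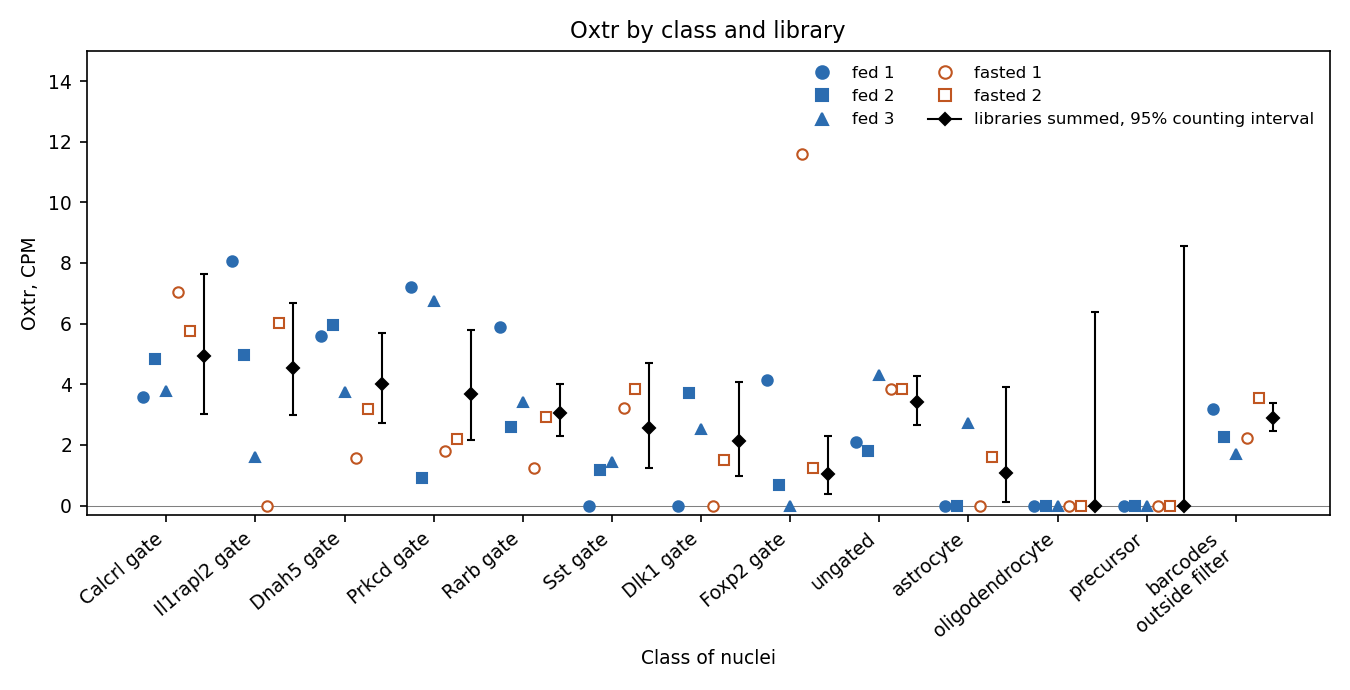
Oxtr in CPM (vertical axis) in the 8 tested gates, ungated inhibitory nuclei, 3 glial classes and the barcodes outside the filter, for each library (coloured symbols) and for the libraries summed (black diamonds, 95% Poisson interval of the count). The Calcrl gate has the highest summed level, 4.94 CPM, and the Foxp2 gate the lowest summed level of the tested gates, 1.05 CPM, with overlapping libraries. By the mean over libraries the Dlk1 gate is lowest, at 1.55 CPM.

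These differences did not pass the test. With the filter on low counts, 49.9% of 10031 genes differed over the 8 gates (edgeR quasi-likelihood test, adjusted p under 0.05), but Oxtr was removed by that filter. Without a filter 31.5% of 17693 genes were called, and Oxtr was not (edgeR, adjusted p = 0.145). Of single gates against the mean of the others, the Foxp2 gate came closest, with Oxtr lower by a log2 fold of -1.55 ± 0.56 (SE; interval -2.67 to -0.44; edgeR, adjusted p = 0.0511), where 12.9% of genes were called. It was called without fed replicate 1 (log2 fold -1.76; edgeR, adjusted p = 0.0412) and without fasted replicate 1 (-1.82; adjusted p = 0.0214), but not without any other library (-1.09 without fed replicate 3; adjusted p = 0.353) and not with lower gates (-0.74; adjusted p = 1.00). The Calcrl gate was at a log2 fold of 0.81 ± 0.43 (interval -0.03 to 1.65; edgeR, adjusted p = 0.298; 10.2% of genes called). In the Il1rapl2 gate the log2 fold was 0.62 ± 0.39 (edgeR, adjusted p = 0.320; 18.8% of genes called), and the Dnah5 (13.3%), Prkcd (15%), Rarb (11.6%), Sst (7.08%) and Dlk1 (6.03%) gates also left Oxtr uncalled, with the share of all genes called in parentheses.

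The call depended on where the gates were set. With lower minima (1 UMI for most markers) all 10 gates could be tested, 27.8% of 17918 genes differed, and Oxtr was among them (edgeR without a filter, adjusted p = 0.00955). Under those gates Oxtr was at 5.37 CPM in the Calcrl gate (301 nuclei, 23 UMIs), at 5.29 in the Il1rapl2 gate, at 1.25 in the Foxp2 gate and listed at 0 in the 91 nuclei of the Vdr gate. The Calcrl gate was then called higher than the mean of the others (edgeR, adjusted p = 0.0161), a mean that includes the Vdr gate without a single Oxtr UMI. The share of all genes called in that comparison of 1 lower gate was not counted, so how unusual the call is cannot be told. With higher minima the adjusted p was 0.493, and with nuclei thinned to 4000 UMIs it was 0.917.

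No difference in Oxtr between fasted and fed inhibitory nuclei was detected. The mean was 3.33 ± 0.637 CPM in the 3 fed and 3.09 ± 0.274 CPM in the 2 fasted libraries (SD). The log2 fold was -0.10 ± 0.28 (SE; interval -0.74 to 0.53; edgeR, adjusted p = 1.00), and an exact two-sided permutation test gave p = 0.8, where 3 against 2 libraries cannot go below 0.2. None of 13598 genes was called in this comparison (0%), although 711 had an unadjusted p under 0.05, and DESeq2 called 99. By preparation batch, Oxtr was 1.07 CPM lower in the fasted library of batch 1 (a difference of -1.07) and 0.591 CPM higher in that of batch 2. With the batch as a replicate block 287 genes were called and Oxtr was not (log2 fold -0.05; edgeR, adjusted p = 0.981). Without fed replicate 3, the library of another genotype and age, the log2 fold of Oxtr was -0.09, and without fed replicate 1 it was 0.014.

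Within gates the fed and fasted values parted in places, on few molecules. In the Sst gate fed libraries were at 0, 1.17 and 1.43 CPM and fasted libraries at 3.20 and 3.83, without overlap, from 10 UMIs in all. Fed replicate 1 held 0 of these UMIs, where 3 counts would be 13.3 CPM. Fed replicates 2 and 3 and fasted replicate 1 held 1 UMI each. In the Calcrl gate the fasted values above likewise lay over the fed ones. In the Dnah5 gate the order was opposite, with 5.59, 5.94 and 3.76 CPM in fed and 1.58 and 3.17 in fasted libraries. The 1.58 CPM of fasted replicate 1 was a single UMI, where 3 counts would be 4.74 CPM. Even fully parted values of 3 against 2 libraries cannot give an exact two-sided permutation p below 0.2. How many of all genes parted in this way was not counted. The fitted log2 folds ran from -1.16 in the Prkcd gate to 1.54 in the Sst gate. None of the 8 gates gave a call for Oxtr (edgeR without a filter, lowest adjusted p = 0.902, in the Sst gate). The share of all genes called was 0.261% in the Foxp2 gate, 0.583% in the Rarb gate, 0.99% in the Dnah5 gate, 0.347% in the Dlk1 gate, 1.16% in the Sst gate, 0.214% in the Calcrl gate, 0.556% in the Prkcd gate and 0.533% in the Il1rapl2 gate. An interaction of gate and feeding did not call Oxtr either (edgeR without a filter, adjusted p = 1.00; 2.33% of genes called).

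**Figure D3:**
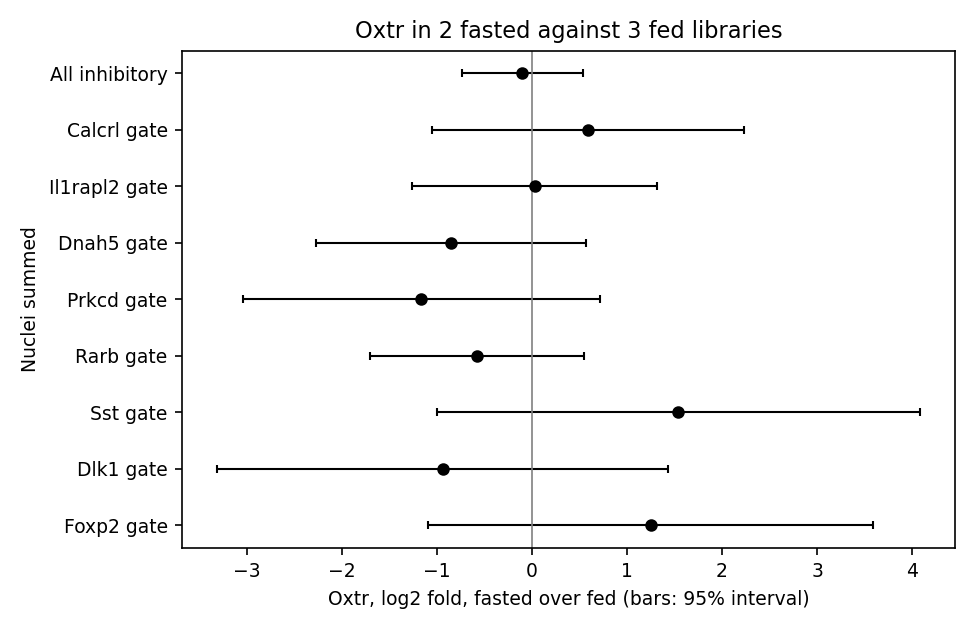
log2 fold of Oxtr in 2 fasted over 3 fed libraries (horizontal axis, point with 95% interval from the edgeR fit) in all inhibitory nuclei and in each tested gate (rows). Every interval includes 0, and the narrowest, for all inhibitory nuclei, runs from -0.74 to 0.53.

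Nuclei with an Oxtr UMI were then compared with those without one, to describe what accompanies the receptor. In each library the UMIs of the 22 to 76 inhibitory nuclei with an Oxtr UMI were summed and set against the sum over the rest, with the library as a block. Of 11614 genes, 88 were higher (0.758%) and 95 lower (0.818%) in nuclei with an Oxtr UMI (edgeR, adjusted p under 0.05). Of these 183, 154 moved the same way in every library. They were called on these same libraries, and the share over all genes is not given, so this adds no support. Nuclei with a UMI were deeper, with a median of 18162 UMIs against 13173. Set against nuclei without a UMI of the same library and like depth, 175 of the 183 genes kept their direction and 78 were called, and with the gate matched as well 171 kept it and 53 were called. These fits reused the same nuclei with a UMI and a subset of those without one. The 183 genes were chosen on those nuclei, so a kept direction is not independent support. Without fed replicate 3, 101 genes were called in all.

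**Figure D4:**
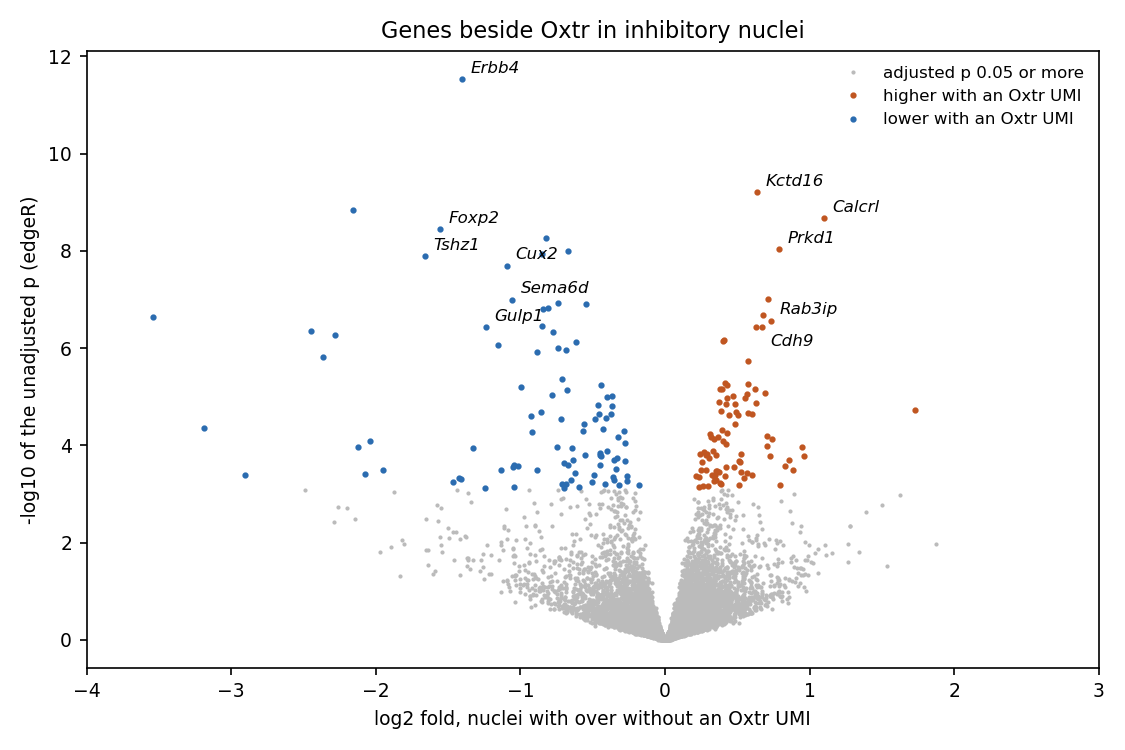
All 11614 genes tested between inhibitory nuclei with and without an Oxtr UMI, as log2 fold (horizontal axis) and -log10 of the unadjusted edgeR p (vertical axis). The 88 genes called higher (orange) are led by Kctd16 and Calcrl, and the 95 called lower (blue) by Erbb4.

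Calcrl had the largest rise among called genes at 20 CPM or more that moved the same way in every library. It was at 98.8, 71.9 and 74.4 CPM in nuclei with an Oxtr UMI of fed replicates 1 to 3 and at 120 and 74.6 in those of the fasted replicates, against 55.6, 32.3, 41.5, 45.2 and 31.4 CPM in nuclei without one. The ranges did not overlap, and the log2 fold was 1.10 ± 0.11 (SE; edgeR, adjusted p = 6.17e-06). A Calcrl UMI was present in 32.6% of nuclei with and 19.9% of nuclei without an Oxtr UMI. Since the Calcrl gate held 16 of the 215 nuclei (7.44%, against 5.13% of inhibitory nuclei), most of them lay outside it. The ungated nuclei held 65 of them (30.2%, against 33.6% of inhibitory nuclei). The Rarb gate, named for an amygdalostriatal marker, held 49 (22.8%, against 20.9%). The Calcrl gate came late in the order, and nuclei with Calcrl could enter an earlier gate. Calcrl was at 61.3 CPM in the Rarb gate and 59.0 in the Dnah5 gate, against 277 in the Calcrl gate. A nucleus outside the Calcrl gate can therefore still hold Calcrl. Matched on depth and gate, the log2 fold of Calcrl was 0.80 (edgeR, adjusted p = 0.00371).

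Other genes rose by less and over more nuclei. Kctd16, an auxiliary subunit of GABA-B receptors, was at 1142 ± 121 CPM with and 732 ± 54.1 without an Oxtr UMI (SD, n = 5), a log2 fold of 0.64 ± 0.06 (SE; edgeR, adjusted p = 3.67e-06). It was held by 96.3% of nuclei with and 89.1% of the shallower nuclei without an Oxtr UMI. Prkd1, protein kinase D, which lies downstream of phospholipase C and protein kinase C, was at 286 ± 52.7 against 174 ± 11.6 CPM (log2 fold 0.79 ± 0.09; edgeR, adjusted p = 1.46e-05). Cdh9, a classical cadherin, was at 192 ± 38.0 against 117 ± 11.4 CPM (0.67 ± 0.09; edgeR, adjusted p = 0.000180). For these 3 genes, as for Calcrl, no library's value with a UMI fell into the range without one. This held for 12 of the 18 largest rises and falls, which were picked from this same comparison. It was not counted over all genes, so it adds no support beyond the test.

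The remaining 8 of the 12 largest rises were Papln (log2 fold 0.96), Tll2 (0.83), Hebp1 (0.80), Rab3ip (0.73), Erich1 (0.73), Zfp521 (0.71), Bmpr1b (0.69) and Atp10a (0.68). Rab3ip takes part in vesicle transport, Atp10a is a phospholipid flippase, Hebp1 is a heme-binding protein, Zfp521 is a zinc-finger transcription factor, Bmpr1b is a receptor for bone morphogenetic proteins and Tll2 is a metalloprotease. Calcrl, Prkd1, Rab3ip, Atp10a, Cdh9 and Kctd16 were called in all 12 alternatives run for each. Hebp1 was called in 5 of 12 and Papln in 7, and 8 of the 12 rises were called with depth matched and also 8 with depth and gate matched.

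Erbb4, the receptor for neuregulins, gave the smallest p of all genes and was lower. Its level was 238, 551 and 484 CPM in nuclei with an Oxtr UMI of fed replicates 1 to 3 and 101 and 480 in those of the fasted replicates, against 726, 1528, 976, 552 and 1260 CPM without one. It fell by 1.41 ± 0.10 on the log2 scale (SE; edgeR, adjusted p = 3.37e-08). It was lower in 5 of 5 libraries, which the rule for the named falls required. The share of nuclei with an Erbb4 UMI was 76.3% with and 73.7% without an Oxtr UMI. Erbb4 was called in all 12 alternatives.

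The other 5 of the 6 largest falls were in genes of lower level, except Sema6d. Tshz1, a teashirt family factor, was at 14.9 ± 6.29 against 47.1 ± 14.3 CPM (log2 fold -1.66 ± 0.19; edgeR, adjusted p = 1.47e-05). Cux2, a homeobox factor, was at 41.8 ± 12.5 against 81.4 ± 11.8 CPM (-1.09 ± 0.13; adjusted p = 2.13e-05) and Nfib, of the nuclear factor I family, at 21.0 ± 13.6 against 52.3 ± 17.4 CPM (-1.16 ± 0.17; adjusted p = 0.000323). Gulp1, an engulfment adaptor (log2 fold -1.24), and Sema6d, a transmembrane semaphorin (-1.06), completed the 6. All 6 were called with depth matched, and all but Nfib with the gate matched too.

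**Figure D5:**
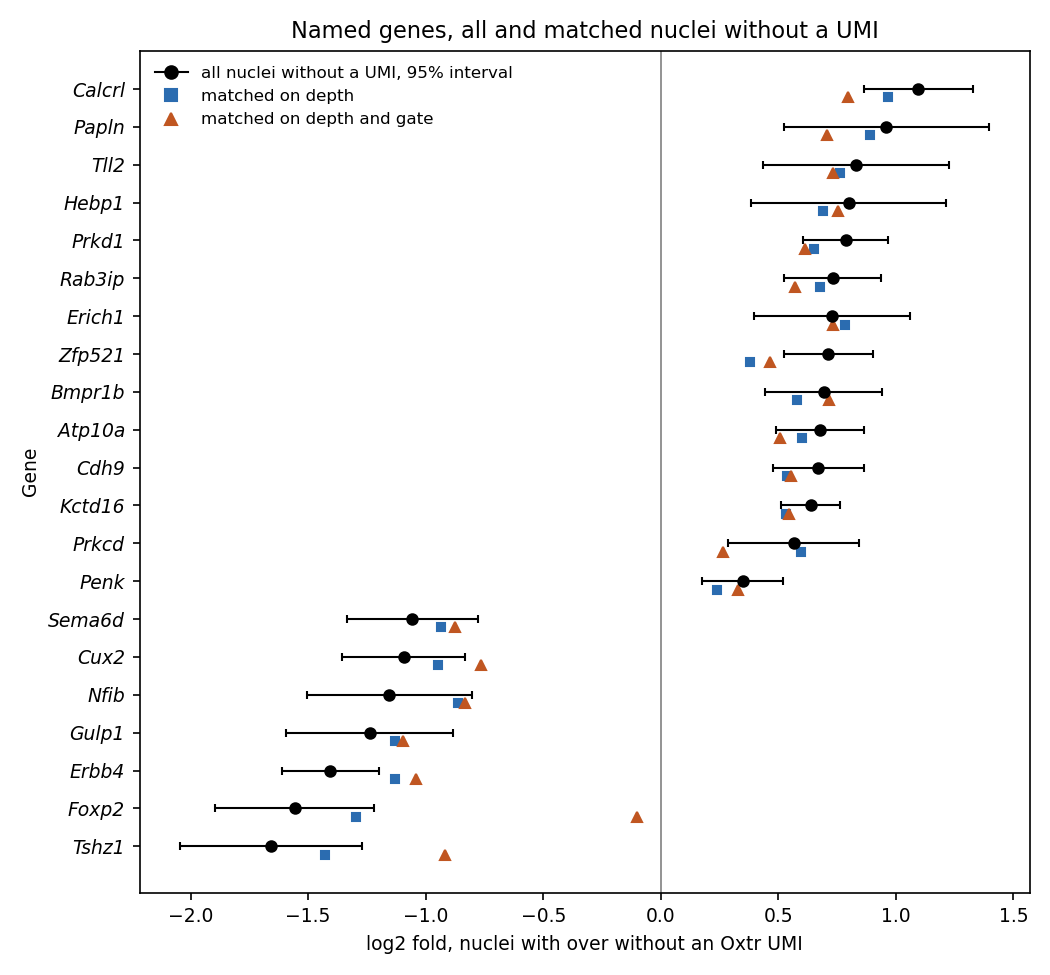
log2 fold between nuclei with and without an Oxtr UMI (horizontal axis) for the 18 genes with the largest rises and falls and 3 markers (rows), against all nuclei without a UMI (black, 95% interval) and against nuclei matched on depth (squares) or on depth and gate (triangles). All 18 keep their direction, while Foxp2 moves from -1.56 to -0.10 once the gate, which uses Foxp2, is matched.

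Of a panel of 20 marker genes, 3 were higher and 2 lower in nuclei with an Oxtr UMI (0.758% and 0.818% of all genes). The median log2 fold was -0.36 over the panel against 0.01 over all genes tested. The panel includes Foxp2 and Rarb, which the study used to mark cells outside the CeA. Calcrl, Prkcd and Penk were the higher ones. Prkcd is the kinase that marks neurons of the lateral CeA, and the study also found it in its Cdh9 and Calcrl cluster. Prkcd was at 270 CPM in the Calcrl gate and 487 in the Prkcd gate. With an Oxtr UMI it was at 172, 141 and 167 CPM in the fed replicates and at 86.7 and 55.4 in the fasted ones. It was higher in 4 of 5 libraries (log2 fold 0.57 ± 0.13, edgeR, adjusted p = 0.0302). Prkcd was called in 5 of its 12 alternatives and Penk, which encodes enkephalin precursor (log2 fold 0.35; adjusted p = 0.0316), in 6. Foxp2 was at 54.0 ± 19.5 against 131 ± 53.2 CPM (log2 fold -1.56 ± 0.16, edgeR, adjusted p = 8.43e-06), lower in 4 of 5 libraries. Vdr, the vitamin D receptor, was present in 0.465% of nuclei with and 2.09% of nuclei without an Oxtr UMI (edgeR, adjusted p = 0.00654). Nuclei with an Oxtr UMI held 3 Vdr UMIs, all in fasted replicate 2, so this call rests on few molecules. Neither fit with matched nuclei included Vdr. Sst was at 27.7 ± 26.1 against 36.2 ± 13.4 CPM and Dnah5 at 82.0 ± 40.4 against 71.0 ± 17.2, neither of them called.

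Of the 11 markers used to check the gates, 10 were tested, 1 was higher and 2 were lower, where 0.758% and 0.818% of all genes were. These 3 are named after their values were seen. Vipr2, a receptor for vasoactive intestinal peptide, was lower (log2 fold -2.45; edgeR, adjusted p = 0.000206) and stayed so with depth and gate matched. Rai14 was lower (-1.05; adjusted p = 0.0249) and Tafa1 higher (0.58; adjusted p = 0.0038), both without a call under the matching on depth and gate. Lhx6, an interneuron marker, had a log2 fold of -1.66 and was not called (adjusted p = 0.123).

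Genes of the pathway below the receptors were then compared in the same way. Of a list of 27 ligand, receptor and signalling genes, 18 were tested between nuclei with and without an Oxtr UMI, 0 were higher and 1 was lower (0.758% and 0.818% of all genes), with a median log2 fold of -0.02 against 0.01 over all genes. Plcb4, a phospholipase C beta, was the lower one (log2 fold -0.41 ± 0.10; edgeR, adjusted p = 0.0426) and was called in 8 of 12 alternatives. Prkca, a protein kinase C, had a log2 fold of -0.32 (adjusted p = 0.0528) and Rgs4, a regulator that shortens Gq signals, one of 0.55 (adjusted p = 0.357). Gnaq, the G protein subunit that couples the receptors, was at 319 ± 6.44 CPM in inhibitory nuclei and had a log2 fold of 0.00 (interval -0.14 to 0.15).

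Between the gates 17 of the 27 genes were tested and 13 differed (76.5%, against 49.9% of all genes). Plcb4 was at 246 ± 31.2 CPM in the Dlk1 gate and 47.9 CPM in the Rarb gate, and Itpr1, an inositol trisphosphate receptor, was at 414 ± 82.6 CPM in the Rarb gate and 74.4 CPM in the Prkcd gate. Rgs4 was highest in the Prkcd gate at 26.6 ± 4.54 CPM and lowest in the Foxp2 gate at 4.74 CPM. Gnaq, Gna11, Lnpep and Rgs2 were tested and not called, which does not show equal levels. With fasting, 21 of the list were tested and 0 were called, with a median log2 fold of -0.02.

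As a description, genes were ranked by how closely their mean log2(CPM + 1) followed that of Oxtr over 12 classes, with gate markers left out. Of 9163 genes, Brca2 (Pearson r = 0.972), Ppa1 (0.943), St6gal2 (0.943), Cnnm1 (0.939) and Bmp6 (0.936) came first. The classes shared libraries, and 3 of them were glial classes with Oxtr at or near 0, so that 21.7% of all candidates had an r over 0.7. Bmp6, a bone morphogenetic protein, was highest in the Calcrl gate at 53.4 CPM and next in the Prkcd gate at 38.4. Avpr1a had UMIs in 1 of the tested gates and in the ungated nuclei, and no such ranking was made for it.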

How the data were processed

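Per the labels and the study's methods, the authors made 10x 3′ libraries of nuclei and counted reads with Cell Ranger on GRCm39 with Cre and mCherry added. The matrix headers give version 5.0.0, whereas the submitters' processing notes name Cell Ranger 2.1.1 and mm10. The deposited values are raw UMI counts per gene and barcode, made by the authors for each library separately, and were used as deposited. Library totals ran from 17321997 to 53146326 UMIs, and mCherry UMIs occurred in fed replicate 3 only (3152).

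Nuclei were filtered, gated and summed per class and library. Scrublet (scanpy 1.11.5) marked 70 nuclei (0.978%) as doublets, which were kept, and 3 barcodes occurred in more than 1 library. Sums were tested with edgeR 4.0.16 (quasi-likelihood, TMM, filterByExpr, Benjamini-Hochberg) in R 4.3.3, with DESeq2 1.42.0 (poscounts size factors) and edgeR's likelihood ratio test as alternatives. Where the filter removed Oxtr, the fit without a filter was used, which differs from the planned main fit. Standard errors and intervals of folds were derived from the F statistic and are approximate. Fits with the filter were run on simulated data. The fits without a filter, used for Oxtr between and within gates, were not. The simulation gave each gene a single dispersion over the sums with and without an Oxtr UMI. It therefore cannot check calls where the spread of these sums differs. The members and lists were chosen with earlier results of these data known.

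The named genes are Oxtr and Avpr1a, a signalling list of 27, a panel of 20 markers, and, between nuclei with and without a receptor UMI, the 12 largest rises and 6 largest falls among genes past an adjusted p of 0.05, at 20 CPM or more and changed the same way in every library. Matched nuclei (5 per nucleus with a UMI) were added after seeing the data. The legend of a supplementary figure of the study places fed and fasted libraries numbered alike in 1 preparation batch. That fed replicate 3 is the fed library with a batch of its own was taken by elimination, and the batch and block values rest on this. Across 13381 genes, deviations of same-numbered libraries from their group means correlated at 0.383 and 0.558. With 2 fasted libraries the crossed values are the same with a minus sign, and fed replicate 3 correlated with fasted replicate 1 at 0.258, so these values do not by themselves show pairing. Fed replicate 3 has no fasted partner. A genome annotation of the same build gave the positions.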

Additional observations from a re-analysis of the deposited data

Results flagged for a closer look

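In fed replicate 2 Avpr1a stood apart from the other libraries, at 0.197 CPM over all inhibitory nuclei and at 0.681 CPM in the Foxp2 gate, by a test for a lone extreme value among 5 libraries. These values rest on 3 UMIs and 1 UMI. A gene with a UMI in 1 library and 0 in the others always meets this test, as in the Foxp2 gate, so neither value is evidence that the library differs.

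Signals also lay outside the nuclei compared. One unclassified nucleus of fed replicate 3 held 112 Oxt UMIs of its 20418 UMIs, with 0 Gad1, Gad2 and Slc17a6 UMIs. The barcodes outside the filter held 160 Oxtr UMIs in 55196540 UMIs, at 2.90 CPM. The flag asked only for more than 3 UMIs, so it does not show that these barcodes are unusual.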

How the results depend on the processing

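The adjusted p of Oxtr over the gates, without a filter, ran from 0.0864 to 0.477 when 1 library was left out and was 0.00955 with lower gates. The number of genes that differed over the gates was 5006 and fell to 2581 with thinned nuclei, when fewer genes were tested; leaving out 1 library gave 4107 to 4869. Against the other gates, Oxtr turned sign, with no call, in the Rarb gate with higher gates (-0.25), in the Dnah5 gate with thinned nuclei (-0.18), in the Dlk1 gate with lower gates (0.55) and in the Prkcd gate without fed replicate 3 (-0.31, the lowest of -0.31 to 0.65 with 1 library left out). In the Foxp2 gate it was called lower without fed replicate 1 or fasted replicate 1, and by the likelihood ratio test, and its log2 fold was -0.74 with lower gates and -1.09 without fed replicate 3, with no call.

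For feeding, the log2 fold of Oxtr in all inhibitory nuclei ran from -0.22 to 0.014 with 1 library left out, positive only without fed replicate 1. The number of genes called was 0 and became 99 with DESeq2, 161 with the likelihood ratio test, 140 without a filter, 1 without doublets and 287 with the replicate block; leaving out 1 library gave 0 to 27. By gate, 95 of 102 alternatives kept the sign of Oxtr and none called it, 4 of them without an adjusted p from DESeq2. The exceptions were the Prkcd gate with lower gates (0.26) and the Il1rapl2 gate with DESeq2 (-0.34), the likelihood ratio test (-0.022), higher gates (-0.81), the replicate block (-0.49) and 2 libraries left out in turn (-0.43 without fed replicate 3, -5.08 without fasted replicate 2, in a range up to 0.42). The block changed no call of Oxtr.

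The number of genes that accompany an Oxtr UMI was 183 and became 344 without a filter, 85 with depth matched and 61 with depth and gate matched. It ran from 101, without fed replicate 3, to 206 with 1 library left out. None of the 23 genes run through these alternatives turned sign. Among the other panel markers, Sst went from -0.10 to 0.16 with depth matched and 0.18 with depth and gate matched. Dnah5 went from 0.26 to -0.018 with depth and gate matched. Neither was called. Thinned nuclei and nuclei with at least 2 Oxtr UMIs could not be compared, since fewer than 10 were left in at least 1 library, and no alternative could be run for Avpr1a. The causes were not tested. Depth limits all class levels of Oxtr, which rest on 6 to 52 UMIs per tested gate.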
